A study of Mus musculus with 622 samples.

Results

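Recurrent editing of 3' UTRs by an RNA editor that carried no AGO2 was described in mouse 2-cell embryos. The 3' UTRs were those above 0 in at least 12 of the 15 editor-only embryos whose mean editing with the AGO2-fused editor stayed under 2 times the editor-only mean. That rule took 347 of the 6063 3' UTRs listed. Of the 461 recurrently edited 3' UTRs, the other 114 reached 2 times or more, and they serve below as the nearest comparison. The members were chosen by the editing values of the editor-only embryos and of the embryos with the AGO2-fused editor and no added microRNA, so those values are a description and were not tested.

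Argonaute proteins bind a microRNA, whose seed (bases 2 to 8) pairs with sites that lie mostly in 3' UTRs, and the bound transcript is then translated less or decays faster. In the Ago-REMORA assay AGO2 is fused to an RNA editor, so that edits accumulate on transcripts that AGO2 meets. An editor without AGO2 marks the transcripts it reaches unguided, and is the background against which guided editing is read. The mouse 2-cell embryo holds a large store of mRNA made in the oocyte, most of which is cleared while the embryo's own genome is switched on.

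Embryos came from oocytes of FVB/NJ females aged 5 to 7 weeks. Oocytes were activated without sperm with strontium chloride, EGTA and cytochalasin B to give parthenotes, or were fertilized in vitro, and all were injected into the cytoplasm. The editing assay used late 2-cell parthenotes collected 28 hours after activation: 15 titled abe, taken here as the editor alone, 23 with AGO2 and the editor, 27 with AGO2, the editor and miR-200c-3p, and 28 with AGO2, the editor and miR-465c-3p. No embryo without an editor was among them. The mRNA of the same genes was followed in GFP-injected control embryos of 2 parthenote series, collected beside the miR-200c-3p doses (series 1: 28 at the 2-cell stage, 24 at 4-cell, 20 at morula) and beside the miR-465c-3p doses (series 2: 22, 23 and 22), and in fertilized controls (21 at 4-cell, 23 at morula). The 4-cell embryos were taken at 46 hours and the morulae at 70 hours. The 2-cell parthenotes injected with miR-200c-3p at the low dose of about 200 molecules (26) or at the mid dose (23), or with miR-465c-3p (21), were also compared with their controls. Each library is 1 embryo, and embryos of about 5 females were pooled before they were assigned to groups, so the spread is that between embryos and not between litters.

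Marker transcripts of the control embryos were set beside their labelled stage. The embryos of the editing assay were not checked in this way. Summed over 76 maternal oocyte transcripts, the median level in control parthenotes was 84240 CPM (counts scaled to the library total) at the 2-cell stage, 9613 at 4-cell and 6251 at morula in series 1, and 57037, 9594 and 7007 in series 2. Morula and trophectoderm markers had medians of 472, 1176 and 4159 CPM in series 1 and 574, 1443 and 4304 in series 2. In fertilized controls they had 1230 at 4-cell and 2598 at morula. Genome activation and 2-cell genes had 13935, 13533 and 5610 CPM in series 1, which hardly set 2-cell apart from 4-cell, and 14125, 11606 and 5793 in series 2. Cumulus cell markers, from cells that surround the egg, summed to at most 104 CPM in any 2-cell control.

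Every gene in the 3 editing tables that the GENCODE annotation places on a strand was on the forward strand: 6063 of 6063 genes with a 3' UTR value, 6511 with a coding sequence value and 8389 with an intron value. In the annotation 49.9% of the protein-coding genes are on that strand. Genes of the reverse strand were therefore not candidates for membership, and nothing below speaks of them.

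The microRNAs added to the AGO2-fused editor are shown first because their seeds define the sites searched in the 3' UTRs. Capitals mark the seed. Sequences are from RefSeq (GRCm38.p6).
mmu-miR-200c-3p: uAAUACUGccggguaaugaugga
mmu-miR-465c-3p: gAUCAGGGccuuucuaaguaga

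The 7-base match to the miR-200c-3p seed (CAGTATT) was in 72 of the 345 members with 1 annotated 3' UTR (20.9%), against 34 of 114 recurrent 3' UTRs at 2 times or more (29.8%) and 1051 of 6043 of all (17.4%). Per kilobase the members had 0.0997 matches, the 3' UTRs at 2 times or more 0.121, and all 3' UTRs 0.105. The match to the miR-465c-3p seed (CCCTGAT) was in 39 members (11.3%), 17 of the 114 (14.9%) and 658 of all (10.9%), or 0.0533, 0.0733 and 0.0583 per kilobase. Only the transcribed strand was searched. Sites in 6 members are printed as examples of what a guided editor could have met, with the match in capitals. They belong to Rnf114 (an E3 ubiquitin ligase), Rrn3 (a factor of RNA polymerase I transcription), Hmgb3 (a chromatin protein), Pttg1ip (a protein that binds securin), Hspb1 (a small heat shock protein) and Nras (a small GTPase).
Rnf114, chr2:167515522-167515551, + strand, mm10: cttgatgagcctgagCAGTATTgctgcctc
Rrn3, chr16:13813439-13813468, + strand, mm10: actgagtgtcataggCAGTATTtcacagtg
Hmgb3, chrX:71560618-71560647, + strand, mm10: ttgaagttaaataaaCAGTATTacattttt
Pttg1ip, chr10:77598157-77598186, + strand, mm10: gtaagcagatcacaaCCCTGATggcagggt
Hspb1, chr5:135889204-135889233, + strand, mm10: gatgtgtaacccttgCCCTGATtttctgtg
Nras, chr3:103065862-103065891, + strand, mm10: gaggcttgatgtttgCCCTGATaattcatt

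The deposited unit, EPKM, is not spelled out, but its values step in whole edits. For each gene the values of an embryo were whole multiples of 1 step (tolerance 0.01 edits) in 99.0% of the 3' UTR values above 0, and the step scaled with 3' UTR length. The length implied by the step was within 1% of the annotated 3' UTR for 304 of 345 members. EPKM is accordingly read here as edits per kilobase of 3' UTR, scaled by a total for the embryo, which ran from 329324 to 1642502 (median 1050948) and whose nature is not stated. An editor-only embryo held a median of 3461 edits in 3' UTRs (1802 to 5011). The AGO2-fused groups held medians of 7944, 6611 with miR-200c-3p and 7689 with miR-465c-3p. Replicates 6 and 11 of the AGO2 group, and replicates 20 and 24 of the miR-200c-3p group, had the same edits at every gene in all 3 tables. Each pair was counted as 1 embryo below (n = 22 and n = 26), except in the membership rule. Counted once there, the rule gave 344 members, 343 of them shared.

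The members took 41.5% ± 3.27 (SD, n = 15) of all 3' UTR edits in editor-only embryos, with a lowest embryo of 34.5% and a highest of 47.2%. In the AGO2 group they took 29.1% ± 3.37 (n = 22), with miR-200c-3p 31.1% ± 4.01 (n = 26) and with miR-465c-3p 27.8% ± 4.24 (n = 28). Scaled by the embryo's total as in EPKM, but not by length, the members' edits were 1576 ± 150 with the editor alone and 1967 ± 282 with AGO2. Those of the 114 recurrent 3' UTRs at 2 times or more were 468 ± 69.5 and 1517 ± 344.

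Editing of single members was sparse. A member had 14 to 829 edits summed over the 15 editor-only embryos, with a median of 44.0, or 2.93 edits per embryo. The 50 members with the most edits held 40.0% of the edits of all members. Between editor-only embryos a member's edits varied 1.46 times as much as counting alone gives (median of the variance over that expected from the embryo totals), and 91 members were over 2. The medians were 1.99, 2.09 and 2.13 in the 3 groups with AGO2.

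The highest editor-only means belonged to 3' UTRs of very different depth. Pkd1l3 (a polycystin-family membrane protein) had the highest mean at 773 EPKM ± 310, but its implied 3' UTR is 6 bases long and the value rests on 63 edits over 15 embryos. Wdr46, a nucleolar protein, measured 47.7 EPKM ± 24.3 (n = 15) from 189 edits over an implied 283 bases. Of the 12 members named for the highest EPKM, 6 have an implied length under 500 bases, against 21 of all 347 (6.05%), so edit counts are given with them. Mt1 (metallothionein 1, which binds zinc and other metals) had 34.9 EPKM ± 22.4 from 62 edits in 135 bases. Dppa3, the maternal protein that protects the egg genome from demethylation, had 22.6 EPKM ± 9.44 from 80 edits in 270 bases. The other 6 had lower means, down to 10.1 EPKM for Tm2d3 and Srm. They were Rrp9 (61 edits), which takes part in ribosomal RNA processing, Rhpn2 (225), Bcl2l10 (79), Thap11 (93), a zinc finger transcription factor, Tm2d3 (70) and Srm (44).

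Cd320, the receptor that takes up transcobalamin-bound vitamin B12, was the deepest member, with 829 edits in an implied 1349 bases. Editor-only embryos had a lowest value of 19.3, a median of 46.5 and a highest of 63.7 EPKM. With AGO2 the values were 11.6, 52.7 and 74.0, so that the groups overlapped over nearly their whole range, at means of 44.9 ± 10.7 (n = 15) and 50.6 ± 14.2 (n = 22). Prps1, which makes the ribose donor for nucleotide synthesis, had 287 edits, with a lowest of 11.2, a median of 23.8 and a highest of 39.1 EPKM with the editor alone, and 3.95, 30.4 and 45.2 with AGO2. Elovl6, a fatty acid elongase, had the next most edits (550, in an implied 5435 bases) and was singled out after its values were seen. Its editor-only embryos had a lowest value of 1.35, a median of 6.56 and a highest of 20.9 EPKM, and the variance of its edits was 15.9 times that expected from counting, the highest of the members by that measure.

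**Figure D1:**
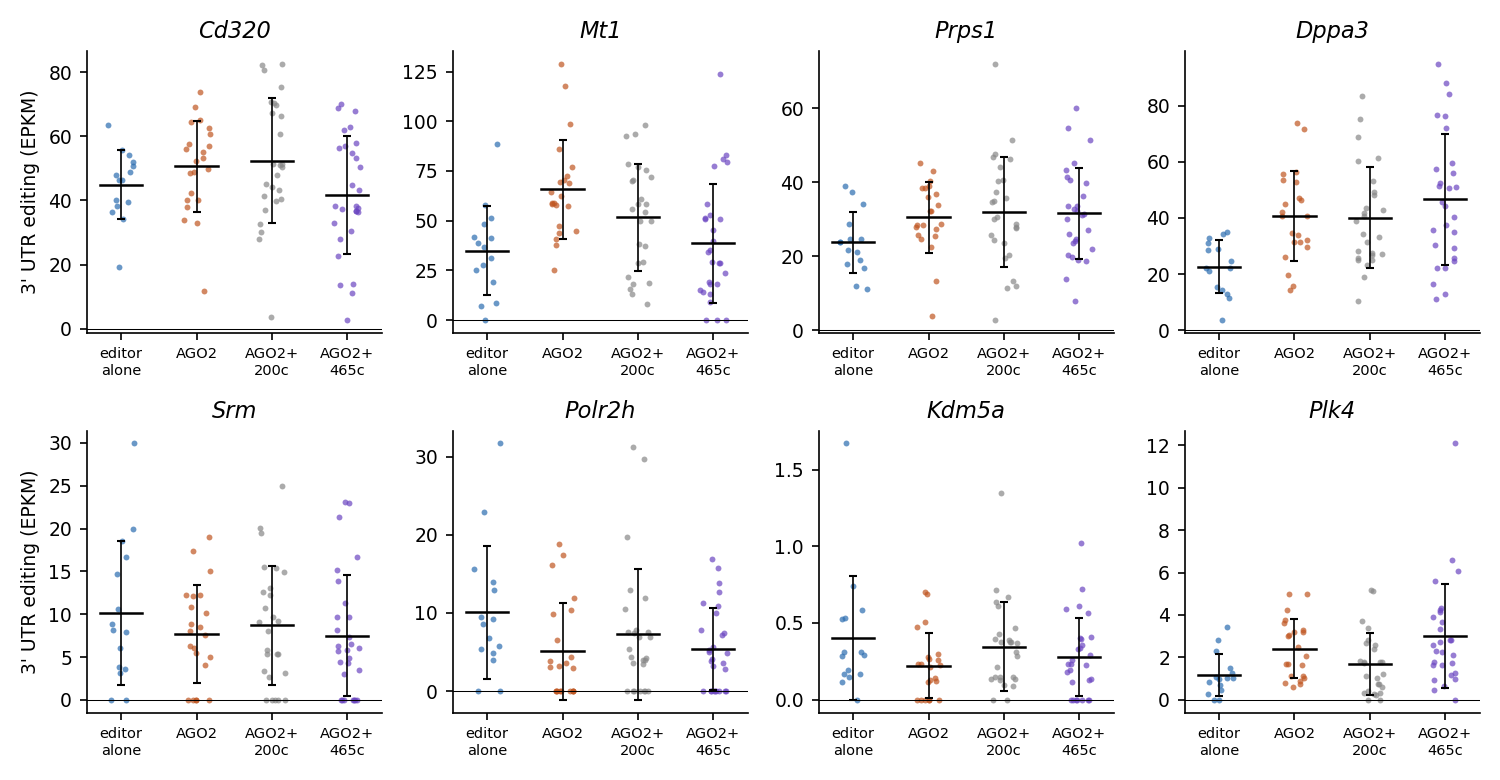
3' UTR editing of 8 members in single embryos, in EPKM, by group (editor alone, n = 15; AGO2-fused editor, n = 22; with miR-200c-3p, n = 26; with miR-465c-3p, n = 28). Each point is 1 embryo, the line is the mean and the bar its SD; the values of Cd320 overlap in all groups, and those of Polr2h and Kdm5a have a lower mean with AGO2 than without.

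The ratio of the AGO2 mean to the editor-only mean, which the rule used, had a median of 1.22 over the members and was under 1 for 91 of them (26.2%). The label of these 3' UTRs, edited without AGO2 dependence, thus covers means that were lower with AGO2, means that were about equal and means that were up to 2 times as high, and the rule does not show that a member's editing was the same in both groups. The lowest ratio was that of Polr2h, a subunit shared by the nuclear RNA polymerases (0.498). Its editor-only embryos had 33 edits in all (EPKM lowest 0, median 8.6, highest 31.7), and the 22 AGO2 embryos had 33 as well (0, 3.16 and 18.8). The histone demethylase Kdm5a followed at 0.554, then Tmem243 at 0.557, the coatomer subunit Cope at 0.564 and the mitochondrial import subunit Timm17b at 0.602. Lctl (0.619), Tti2 (0.620) and Cdsn (0.624) completed the 8 lowest. These 8 members had between 20 and 46 editor-only edits each.

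The members next to the threshold were Plk4 (1.983), the kinase that starts centriole duplication, Slain2 (1.99), Chka (1.996) and Cenpa (1.997), the centromeric histone H3. Just outside lay Angel2 (2.00), Otud4 (2.001), Nrf1 (2.001) and Ncoa3 (2.004). A change of the threshold to 1.5 left 261 members, and 3 gave 421.

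**Figure D2:**
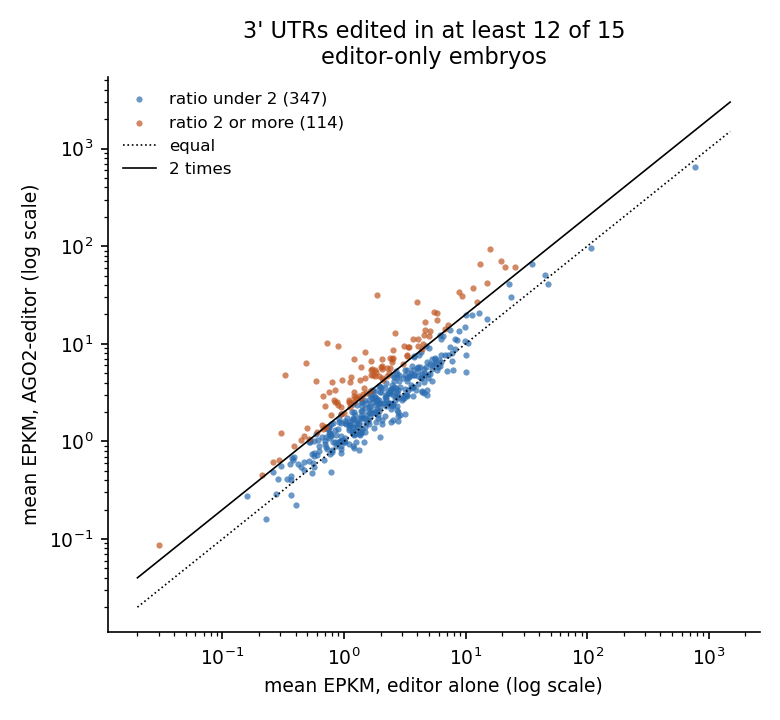
Mean 3' UTR editing with the editor alone (x axis) against the AGO2-fused editor (y axis), in EPKM on log scales, for the 461 recurrently edited 3' UTRs, with each pair of embryos of equal edits counted once. The 347 members spread on both sides of the dotted line of equal means, and 343 of them lie under the solid line of 2 times; the rule itself counted every embryo.

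The embryos with an added microRNA were not used by the rule, although the editor-only embryos they are set against were. With miR-200c-3p, 334 of 347 members (96.3%) stayed under 2 times the editor-only mean, and with miR-465c-3p 313 did (90.2%); 307 (88.5%) stayed under it with both. Of the 114 recurrent 3' UTRs at 2 times or more, 30 (26.3%) and 17 (14.9%) were under 2. The members' median ratio was 1.29 with miR-200c-3p and 1.22 with miR-465c-3p, next to 1.22 without an added microRNA. Coding sequences and introns were listed for many of the same genes. Their ratios below come from the same editor-only and AGO2 embryos that the rule used. They are a description and no independent check of the members. Of the members, 155 of 343 listed had coding-sequence values above 0 in at least 12 editor-only embryos, and the AGO2 mean was under 2 times the editor-only mean in 145 of these (93.5%, median ratio 1.15). For the 3' UTRs at 2 times or more it was 41 of 61 coding sequences (67.2%, median 1.73). Introns reached that recurrence in 13 members, all 13 under 2 (median 0.650). Among the genes with 3' UTRs at 2 times or more they reached it in 8, with 6 under 2 (median 1.11). No share over all listed coding sequences or introns is given, so these counts are not shown to be particular to the members.

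**Figure D3:**
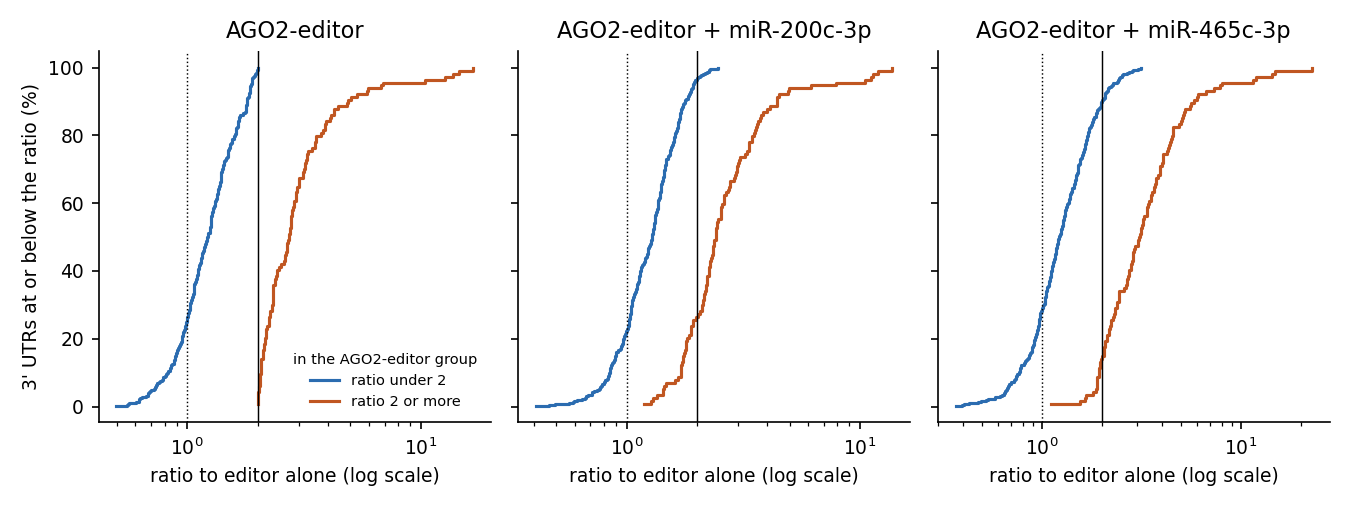
Cumulative share of 3' UTRs (y axis, percent) by the ratio of mean EPKM in each AGO2 group to the editor-only mean (x axis, log scale), for the 347 members (blue) and the 114 recurrent 3' UTRs at 2 times or more (orange). The left panel is the ratio that chose them; in the other panels 96.3% and 90.2% of members lie left of the solid line at 2.

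Editing with miR-465c-3p against editing with miR-200c-3p is the 1 contrast of the assay whose 2 compared groups share no embryo with the rule. The fit held all the editing groups, however. The spread behind its SE and p was thus estimated in part from the embryos that the rule used. It was tested with limma on log2(EPKM + 1) over the 1752 3' UTRs above 0 in at least 50% of the embryos of either group, and all 347 members passed that filter. With miR-465c-3p, 14 3' UTRs were higher (0.799%) and 2 lower (0.114%) at an adjusted p under 0.05, and of the members 2 were higher and none lower. At an unadjusted p under 0.05 there were 47 of the 347 members and 258 of the 1752 3' UTRs. Tm2d3, a membrane protein, had a lowest value of 0, a median of 12.7 and a highest of 41.6 EPKM with miR-200c-3p and 5.42, 21.4 and 65.5 with miR-465c-3p. Its difference was 1.07 on the log2(EPKM + 1) scale (SE 0.26, limma adjusted p = 0.0262). Pum2, a Pumilio protein that represses mRNAs through their 3' UTRs, measured 0, 1.02 and 3.14 with miR-200c-3p and 0.813, 1.89 and 4.11 with miR-465c-3p, a difference of 0.50 (SE 0.14, limma adjusted p = 0.0427). The groups overlapped for both genes, and neither call held under edgeR on the recovered edits, where the differences were -0.02 for Tm2d3 and -0.12 for Pum2. Dnajc8 was next by p and did not pass (difference 0.74, SE 0.22, limma adjusted p = 0.0941).

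The differences were set beside the seed matches as a description. Among the members the median difference was -0.02 for the 60 with miR-200c-3p matches only, -0.02 for the 27 with miR-465c-3p matches only, 0.00 for the 12 with both and -0.03 for the 246 with neither. Tm2d3 has neither match, and Pum2 has 3 miR-200c-3p matches and 1 miR-465c-3p match. For the members whose sites are printed, the differences were 0.27 (Rnf114, SE 0.22), -0.19 (Rrn3, SE 0.19), 0.01 (Hmgb3, SE 0.19), -0.02 (Pttg1ip, SE 0.21), -0.78 (Hspb1, SE 0.33) and 0.43 (Nras, SE 0.18). None of the 6 passed limma's adjusted p of 0.05.

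The members' genes were abundant as mRNA. Of the 347, 342 were matched to the count tables, and 341 of these had a RefSeq length for a level per length (TPM, a transcript's share of all transcripts after division by length, computed from the counts). In 2-cell controls the median was 135 TPM in series 1 and 167 TPM in series 2, which put the median member at the 93.4th and 94.4th percentile of all genes. The 114 recurrent genes at 2 times or more had medians of 245 and 231 TPM, and the remaining genes with a 3' UTR value 13 and 13.5 TPM. The rule asked for edits in at least 12 editor-only embryos, which can itself favour abundant mRNA. The difference from the remaining genes is thus a description and no independent result, and the part of the rule in it was not tested. The same choice is carried into the stage comparisons with all genes below. Across the members, editor-only EPKM was higher where the gene's TPM was higher (Spearman's rho 0.55 with series 1 and 0.59 with series 2, 341 genes), and so was AGO2 EPKM (0.64 with both). For the ratio of the AGO2 mean to the editor-only mean, rho was 0.25 and 0.16. These are correlations across genes, which are not independent replicates, and EPKM and TPM are both scaled by length. Editor-only EPKM was lower where the implied 3' UTR was longer (rho -0.73), and length is in the denominator of EPKM.

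**Figure D4:**
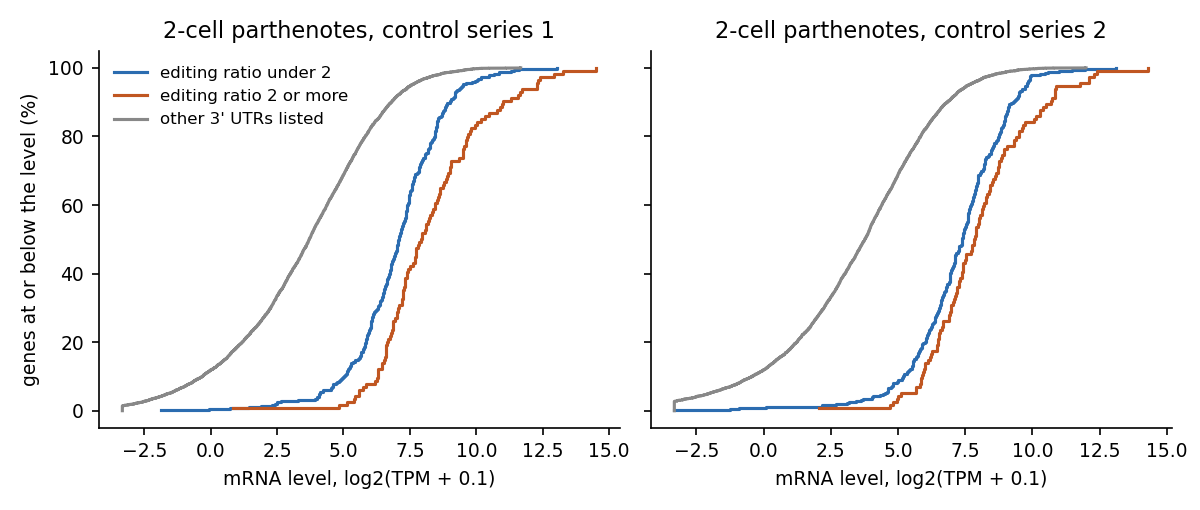
Cumulative share of genes (y axis, percent) by mean mRNA level in 2-cell control parthenotes (x axis, log2 of TPM + 0.1) for the members (blue), the recurrent 3' UTRs at 2 times or more (orange) and the remaining genes with a 3' UTR value (grey), in the 2 control series. Both recurrent groups lie to the right of the remaining genes, with the members' medians at 135 and 167 TPM.

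A few members had little mRNA. In 8 of 342 (2.34%) the mean was under 10 CPM in both 2-cell series: Abhd15, Ap4m1, Cntd1, Mettl23, Myo1h, Pkd1l3, Tmem243 and Zdhhc2. Zdhhc2 had 88 editor-only edits with a mean mRNA level of 0.254 CPM in series 1 and 0 in series 2. The 3' UTRs of members overlapped an exon of a gene on the opposite strand in 73 of 345 (21.2%), against 16 of 114 (14%) at 2 times or more and 929 of 6043 of all (15.4%). Whether reads of such partners carry some of these edits was not tested. The members' annotated 3' UTRs had a median length of 2067 bases, against 2346 at 2 times or more and 1545 over all. Their median A content was 25.8%, next to 26% and 26.4%.

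Between stages the members' transcripts changed in both directions. CPM is a share of the embryo's mRNA, so fewer transcripts of a gene and more of all others cannot be told apart. The stages were deposited in separate count tables. In all, the members held 8.89% ± 1.5 (SD, n = 28) of the mRNA counts of series 1 at the 2-cell stage, 10.9% ± 0.624 (n = 24) at 4-cell and 8.63% ± 0.549 (n = 20) at morula. In series 2 the shares were 10.4% ± 1.36, 10.9% ± 0.969 and 8.57% ± 0.326. The shares of the 114 genes at 2 times or more were lower at each later stage, from 9.62% ± 2.13 to 2.71% ± 0.496 and 1.63% ± 0.140 in series 1 and from 7.37% ± 1.83 to 2.45% ± 0.530 and 1.68% ± 0.107 in series 2.

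From 2-cell to 4-cell, 153 of the 339 members tested rose in series 1 (45.1%) and 113 fell (33.3%), by edgeR at an adjusted p under 0.05; over all 11570 genes tested 35.9% rose and 37.5% fell. In series 2, 103 of 338 rose (30.5%) and 137 fell (40.5%), against 29.6% and 32.2% of 10880 genes. Without the filter on low counts the larger count was that of rises, with 118 members up and 113 down. Over all 19125 genes of that fit 4429 rose and 6073 fell. With median-ratio size factors, which moved the median of all genes in series 1 from -0.04 to -0.31, 130 members rose and 137 fell there. Of all 11570 genes 3531 rose and 4926 fell with these factors. The members' median log2 change less that of all genes was 0.20 in series 1, and -0.17 in series 2, where it was 0.06 with DESeq2 and 0.12 without that filter. Of the recurrent genes at 2 times or more, 80 of 113 fell in series 1 (70.8%) and 79 of 113 in series 2 (69.9%), and 15 and 9 rose. The 2 series share no embryo. Of the members, 99 rose in both, which is 64.7% of those that rose in series 1 and 96.1% of those in series 2. Another 95 fell in both (84.1% and 69.3%).

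From 4-cell to morula more members fell than rose. In series 1, 180 of 339 members fell (53.1%) and 67 rose (19.8%), where 31.5% of all genes fell and 26.4% rose. In series 2, 169 of 338 fell (50.0%) and 53 rose (15.7%), where 27.3% fell and 22.8% rose. In fertilized embryos 196 of 333 fell (58.9%) and 73 rose (21.9%), where 31.9% of 9336 genes fell and 36.7% rose. The members' median log2 change less that of all genes was -0.48, -0.54 and -0.64. In series 2 the split of members depended on the scaling: with median-ratio size factors 84 rose and 144 fell, and with DESeq2 86 and 146. The split of all genes moved as well, from 45.6% of the calls being higher to 57.1% and 59.5%, and the members' median less that of all genes was -0.56 and -0.55. Of the recurrent genes at 2 times or more, 61.9%, 56.6% and 55.1% fell. The series share no embryo, and 147 members fell in both parthenote series (81.7% and 87.0% of those that fell in each). This step shares the 4-cell controls with the step before it. The most frequent course in series 1 was a rise followed by a fall (83 members), then a fall followed by a fall (55). In series 2 a fall followed by a fall was the most frequent (62). No call followed by a fall (59) and a fall followed by no call (51) came next there, ahead of a rise followed by a fall (48). These courses were not counted over all genes, so they are not shown to be particular to the members.

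**Figure D5:**
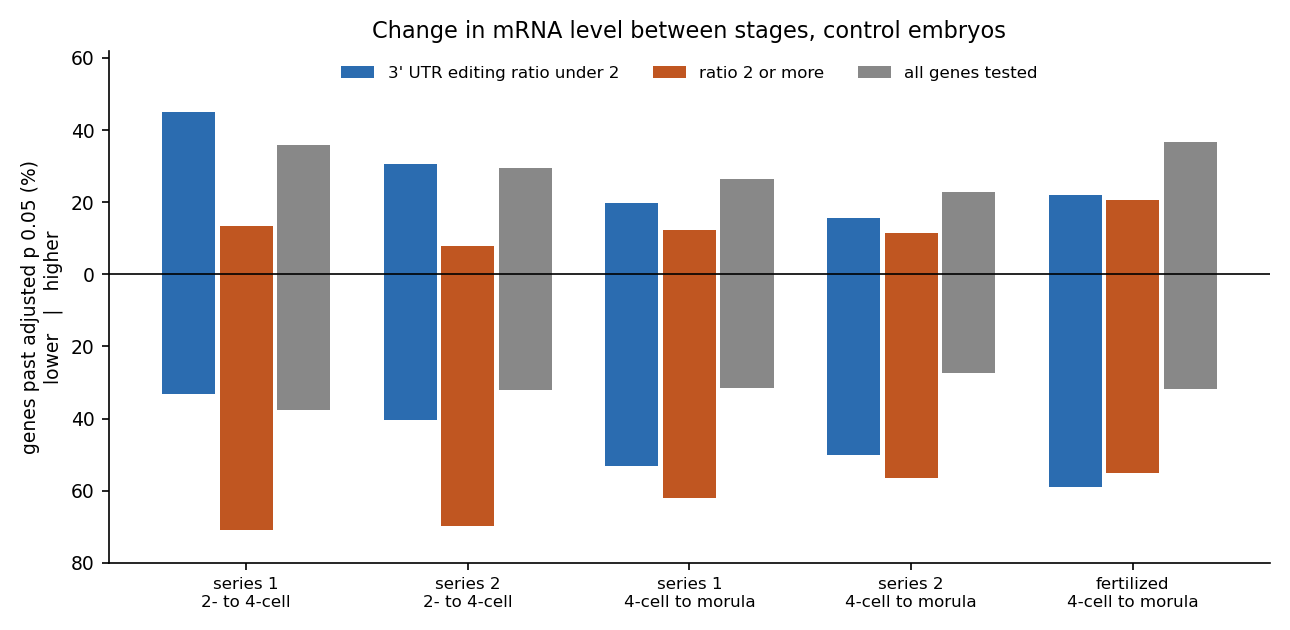
Percent of genes past an adjusted p of 0.05 by edgeR (y axis, risen above 0 and fallen below 0) at each step between stages in control embryos, for the members (blue), the recurrent genes at 2 times or more (orange) and all genes tested (grey). From 2-cell to 4-cell 33.3% and 40.5% of members fell, against 70.8% and 69.9% of the genes at 2 times or more.

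Most maternal transcripts among the members fell. The list of 76 oocyte transcripts had 36 with a 3' UTR value, of which 6 were members and 10 were recurrent at 2 times or more. Of the 6, 4 fell, 1 rose and Zp3 did not pass (-0.52) from 2-cell to 4-cell in series 1, while 5 fell and 1 rose in series 2. All 6 fell from 4-cell to morula in both parthenote series. Over the whole list, 67 of 74 genes tested fell at the first step in series 1 and 67 of 73 in series 2. To morula 66 of 74 and 62 of 73 fell. Wee2, the oocyte kinase that holds meiotic arrest, had a lowest value of 488, a median of 2017 and a highest of 4231 CPM at the 2-cell stage of series 1, then 3.31, 39.3 and 320 at 4-cell and 0, 0.646 and 5.39 at morula. No 4-cell embryo reached the lowest 2-cell embryo (log2 change -4.54, SE 0.40, edgeR adjusted p = 1.41e-16). Nlrp5, of the subcortical maternal complex, went from a median of 402 CPM over 43.3 to 0, and the survival factor Bcl2l10 from 823 over 42.4 to 0.814. Oas1d, an oocyte member of the Oas1 family, and Zp3, a zona pellucida protein, fell to means of 2.14 ± 2.90 and 10.3 ± 7.47 CPM (n = 20) at morula. Dppa3 was the member that rose at the first step. Its lowest, median and highest were 1357, 2944 and 4979 CPM at 2-cell, 2239, 4586 and 7855 at 4-cell and 1857, 2698 and 4667 at morula, ranges that overlap throughout. It rose and then fell (log2 changes 0.67 and -0.50, SE 0.12 and 0.13, edgeR adjusted p = 1.29e-06 and 0.000882). In series 2 its fall to morula (-0.81) did not pass with median-ratio size factors or DESeq2 (-0.41).

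Other steep falls were outside that list. Sfmbt1, a Polycomb-related chromatin protein, fell from 606 ± 186 to 54.8 ± 36.1 CPM in series 1 (log2 change -3.45, edgeR adjusted p = 4.6e-21). The DNA repair nuclease subunit Ercc4 (-3.52) and the pseudokinase Stradb (-3.62) fell likewise. In series 2 the steepest were Apol7e (-5.41), Ercc4 (-4.93), the RNase P and MRP subunit Rpp25 (-4.68), Wee2 (-4.59) and the Rac exchange factor Prex2 (-4.44). From 4-cell to morula the actin-bundling villin gene Vil1 fell in all 3 tests (-5.17, -4.83 and -5.75), and Mbd3l2 (-4.25) and Ankrd35 (-3.78) were among the 5 steepest in fertilized embryos.

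The genome activation and 2-cell genes among the members did not follow their list at the first step. Over the whole list, 11 of 50 genes tested rose to the 4-cell stage and 34 fell in series 1. In series 2, 8 of 47 rose and 34 fell. Of the 20 list genes with a 3' UTR value, 5 were members, and all 5 rose to the 4-cell stage in series 1. In series 2 Dppa2 and Dppa4 rose, Kdm5b fell and Tbx3 and Eif4e did not pass. To morula 4 of the 5 fell in each parthenote series, and 31 of 50 and 24 of 47 fell over the whole list. With median-ratio size factors or DESeq2, 4 rose at the first step of series 1, without Kdm5b, and 2 fell to morula in series 2, where Dppa2 (-0.32) and Dppa4 (-0.22) no longer passed. Dppa2, which with Dppa4 activates 2-cell genes, had a lowest, median and highest of 98.6, 235 and 1007 CPM at 2-cell, 1027, 2099 and 2950 at 4-cell and 773, 1102 and 1556 at morula. All 4-cell embryos of series 1 were above all 2-cell embryos (log2 change 2.82, SE 0.17, edgeR adjusted p = 1.19e-24). Its fall to morula was -0.76 (SE 0.18, edgeR adjusted p = 0.000228). Tbx3, a transcription factor also counted with the pluripotency genes, rose in series 1 (0.91) and changed by 0.38 without passing in series 2.

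Among the steepest rises to the 4-cell stage were genes of metabolic enzymes. Isyna1, which makes inositol phosphate, had a lowest, median and highest of 4.71, 86.9 and 269 CPM at 2-cell and 484, 2754 and 6069 at 4-cell in series 1, and 2.00, 174 and 402 against 1372, 4504 and 8058 in series 2. The ranges did not overlap in either series, and the log2 changes were 4.95 (SE 0.25, edgeR adjusted p = 1.83e-28) and 5.05 (SE 0.29, edgeR adjusted p = 4.4e-24). The sorbitol dehydrogenase Sord rose by 3.39 and 3.02, and the phosphomannomutase Pmm2 by 3.68 and 2.28. Psma6 (2.79), a proteasome subunit, was the other of the top 5 in series 1, and Pop5 (2.89), of RNase P, Rpl10a (2.87), the only ribosomal protein among the members, and the spermidine synthase Srm (2.78) were in the top 5 of series 2. The malate dehydrogenase Mdh2 and the ATP synthase subunit Atp5a1, the only members of their lists, rose in both series (1.47 and 1.70, and 1.42 and 1.58).

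Some chaperones and proteasome subunits rose later as well. Of 6 chaperone members, 4 rose from 4-cell to morula in each parthenote series, against 43 of 85 and 38 of 84 over the whole list. Cct7, of the chaperonin that folds tubulin and actin, had a lowest, median and highest of 60.6, 132 and 291 CPM at 2-cell, 398, 697 and 1081 at 4-cell and 1421, 1678 and 1982 at morula of series 1, with no overlap between stages (log2 changes 2.35 and 1.46, SE 0.11 and 0.12, edgeR adjusted p = 2.3e-30 and 4.09e-18). Of 16 members of the proteasome and ubiquitin list, 5 rose and 7 fell to morula in series 1 and 6 and 8 in series 2. The whole list had 81 rises and 113 falls among 298 genes in series 1, and 78 and 99 among 290 in series 2. The proteasome subunit Psmd2 went from a median of 364 to 1084 CPM in series 1 (log2 change 1.74, SE 0.19, edgeR adjusted p = 4.99e-13), and Psmd1 rose by 1.61, while the ubiquitin ligase Rnf4 fell (-0.86) and Rnf114 fell in series 2 (-0.66) and had -0.31 in series 1, which did not pass. Tmbim6 (1.76), an endoplasmic reticulum membrane protein, and Rpp25 (1.83) fell to 4-cell and rose again to morula in series 1. P4ha2, Ssb, Agpat1 and Ercc4 were among the top 5 rises in series 2 or in fertilized embryos.

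The remaining lists were split. For the chromatin, cell cycle, splicing, translation factor and mRNA storage and decay lists, counts over all genes tested are given beside the member counts. These whole-list counts include the members. Of 9 chromatin members, 8 fell to morula in series 1 and 6 in series 2, among them the methyltransferase Kmt5a (-1.74 and -1.66). Over the whole chromatin list 48 of 134 and 43 of 129 fell. All 9 zinc finger members fell to morula in series 1 and 3 of the 9 in series 2. Over the whole zinc finger list the median log2 change was -0.43 in series 1 and -0.17 in series 2. In series 2, 80 of its 306 genes tested fell and 40 rose, and falls outnumbered rises in series 1 as well. Of 9 cell cycle members 6 and 5 fell, among them Anapc15, of the anaphase-promoting complex (-1.42 and -1.92), and Plk4 in series 1 (-0.75). The whole cell cycle list had 63 and 45 falls among 150 genes. Of 11 splicing members 6 rose and 1 fell in each series, with Ddx39, an RNA helicase of mRNA export, at 1.19 and 0.98. The whole splicing list had 40 rises and 27 falls among 120 genes in series 1, and 31 and 21 among 119 in series 2. Translation factor members rose to 4-cell in 6 of 8 cases in series 1 and in 2 of 8 in series 2. Over the whole list 46 of 62 and 39 of 62 rose. The elongation factor Eef2 was among the risen members in both series (2.04 and 1.73), while the cap-binding protein Eif4e fell to morula (-2.04 and -1.74). All 3 members of the mRNA storage and decay list, Pum2, Pabpc4 and the decapping factor Dcp1a, fell to morula in both parthenote series and in fertilized embryos. Over that whole list 37 of 69, 26 of 70 and 23 of 62 fell. Dcp1a had already fallen at 4-cell (-2.38 and -2.76). Cytoskeletal (5 members), trafficking (10), solute carrier (7) and kinase or phosphatase genes (6) changed in both directions. So did the genes of each of these whole lists, at both steps and in both series. Examples were the actin-severing Cfl1, which rose to morula (1.09 and 0.57), and the motor Kif3c, which fell (-2.99 and -2.46). The sorting protein Snx3 rose to 4-cell (1.72 and 1.75), and the glutamate transporter Slc1a1 rose at both steps (1.10 and 0.92 in series 1). The phosphate carrier Slc34a2 fell at both in series 1 (-1.09 and -1.54), as did the regulatory subunit Pik3r3 (-1.38 and -3.36). The trophectoderm factor Tfap2c rose to 4-cell (0.59 and 0.62). Of the members, 110 were in at least 1 list and 237 in none, and none was a cumulus cell marker.

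The members of highest editing were not alike in their course. Cd320 rose to 4-cell and fell to morula, with medians of 174, 497 and 127 CPM in series 1 and 297, 570 and 109 in series 2 (log2 changes 1.44 and -1.56 in series 1). Prps1 had medians of 2188, 3593 and 1601 CPM in series 1 and rose at the first step there (0.79), while its change in series 2 was 0.07 and did not pass. Rhpn2 fell by 2.88 and 2.63 at the first step. Srm rose at both steps in both series.

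In 2-cell parthenotes the added microRNAs moved no member past the threshold by edgeR with the filter on low counts. The low dose of miR-200c-3p had 0 calls among 11202 genes (0% in each direction) and 0 among the 337 members tested, and DESeq2 also gave 0. At an unadjusted p under 0.05 there were 4 of these members and 136 of the 11202 genes. miR-465c-3p had 0 calls among 9682 genes (0% in each direction) and 0 among 335 members, with 0 by DESeq2. Here 2 members and 94 of the 9682 genes had an unadjusted p under 0.05. The mid dose of miR-200c-3p had 0 calls by edgeR (0% in each direction) but 149 of 337 members at an unadjusted p under 0.05 and 1857 of 11202 genes. DESeq2 called 49 of 342 members lower and 11 higher at the mid dose, among 311 and 169 of 19671 genes. Without the filter on low counts edgeR called 16 of 342 members lower and 5 higher, among 600 and 810 of 19671 genes. The 0 calls at this dose thus depended on the fit. The members' median log2 change was -0.33 there, next to 0.04 over all genes and 0.20 for the recurrent genes at 2 times or more.

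The maternal share of the mRNA had a higher median at the mid dose than in controls, with overlapping ranges, and this difference was not tested. The summed level of the oocyte list had a lowest, median and highest of 51967, 106731 and 157779 CPM at the mid dose and 36330, 84240 and 120488 CPM in controls. The members held 7.75% ± 1.2 of the counts (n = 23) against 8.89% ± 1.5 (n = 28). The part of this in the members' differences was not tested. The 3 members with the smallest p at the mid dose were Oas1d (0.99, SE 0.25), Rnf114 (0.85, SE 0.22) and the replication protein Rpa2 (-0.93, SE 0.25), each with an edgeR adjusted p of 0.165. For the low dose they were Isyna1 (-0.93, SE 0.33), Cnnm4 (-0.39, SE 0.18) and Brap (-0.36, SE 0.16). For miR-465c-3p they were Rpp25 (-0.76, SE 0.24), Rab27a (-0.49, SE 0.21) and Ntmt1 (0.48, SE 0.25). The edgeR adjusted p was 1.000 for each of these 6.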

How the data were processed

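Editing was deposited by region (3' UTR, coding, intronic) as a signal that the file names call EPKM; 3 columns matched no labelled embryo and were not used. They deposited expected counts per gene, made with RSEM on mm10 per the labels' protocols. The submitters' processing notes name STAR, featureCounts, FastQC and cutadapt, and also DESeq2 1.48.2 and R 4.5.1. Totals of the 253 embryos used here ran from 404357 to 6352744 counts (median 2880220), with no molecular identifiers.

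Members and lists were chosen with earlier results of these data known. Stage and microRNA contrasts of the mRNA were tested in R 4.3.3 by the quasi-likelihood test of edgeR 4.0.16 (counts rounded to whole numbers, TMM, filterByExpr) and, as an alternative, DESeq2 1.42.0, the editing contrast with limma 3.58.1 on log2(EPKM + 1). P-values were adjusted by Benjamini-Hochberg over all features tested, with a threshold of 0.05. Fits were tested on simulated data. CPM and TPM were computed from the counts, TPM with RefSeq lengths. 3' UTRs were the union of GENCODE M21 transcripts. Replicate numbers were not taken to pair embryos.

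Named genes, predicted and Rik genes passed over, were the 12 members of highest editor-only mean, the 8 of lowest ratio, 4 on each side of the threshold, up to 4 per list, and up to 5 rises and 5 falls per test (mean of at least 10 CPM), or the 3 of smallest p. 1 gene that the rule for genes in the text takes is not reported here.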

Additional observations from a re-analysis of the deposited data

How the results depend on the processing

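Membership moved with the recurrence asked for: 99 3' UTRs were above 0 in all 15 editor-only embryos and 551 in at least 10, under the same ratio. Medians in the ratio gave 333 members, scaling by each embryo's sum 426, and 2 alternatives chosen after seeing the data, pairs of equal edits counted once and summed edits, 344 each. In series 2 from 4-cell to morula, 86 members rose with DESeq2 and 84 with median-ratio size factors, against 53 (59.5% and 57.1% of all genes' calls were higher, against 45.6%). At the mid dose of miR-200c-3p, where the main edgeR fit called none, DESeq2 called 11 of 342 members higher and 49 lower (169 and 311 of 19671 genes). The replicate block called 14 and 39 of 337 members (241 and 278 of 11202 genes). The fit with no filter called 5 and 16 of 342 (810 and 600 of 19671). With no filter, 1 of 342 members was lower and 0 were higher with miR-465c-3p, among 752 and 796 of 18366 genes. The editing contrast kept 0 of its 2 members under the replicate block, with no filter, a pseudocount of 0.1 or EPKM divided by each embryo's sum, with differences of 0.98 to 1.37 for Tm2d3 and 0.45 to 0.92 for Pum2. A pseudocount of 10 called both and 1 more. It also kept 0 in edgeR on recovered edits (added after seeing the data, 113 members tested), where Tm2d3 (-0.02) and Pum2 (-0.12) reversed. The cause was not tested. Of the called stage changes of named and listed members under median-ratio size factors and DESeq2, 1020 kept the call, 69 lost it and 3 reversed: Pabpc4 from 2-cell to 4-cell in series 1 (0.24 to -0.04 and -0.03) and Hspb1 in fertilized embryos (1.46 to -0.79 with DESeq2).

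Deviations of embryos with the same replicate number correlated over 0.1 in 11 of 23 pairs at the low dose of miR-200c-3p, 7 of 20 at the mid dose, 7 of 21 with miR-465c-3p and at most 3 elsewhere. As not every pair did, the numbers were not taken to pair embryos. Counts near 3 edits per member and embryo limit single 3' UTRs, and the editing assay held no embryo without an editor.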
